A study of Mus musculus with 12 samples.

Results

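The genes described here are the cadherins, protocadherins and integrins, the receptors that hold cells to each other and to the extracellular matrix. They were taken by gene symbol: cadherins with a number in their name, all protocadherins, and the alpha and beta integrin subunits. Of the 12786 gene IDs in the deposited count tables, 73 carried such a symbol, and these covered 72 symbols because Pcdha11 stood under 2 IDs. They were 9 numbered cadherins, 5 non-clustered protocadherins, 44 clustered protocadherins, 10 integrin alpha subunits and 5 integrin beta subunits. A further 40 symbols of the GENCODE annotation that follow the same naming are not analysed here.

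RNA was sequenced from 12 samples of GT1-7, a mouse hypothalamic line of GnRH-producing neuronal cells grown in DMEM with fetal bovine serum. The Klf4 siRNA and Scramble groups, 4 samples each, were transfected for 24 h in Opti-MEM I with lipofectamine, the first with an siRNA against the transcription factor Klf4 and the second with a scrambled siRNA. The 4 Vehicle samples, for which no transfection is named, went through 6 h of serum starvation followed by 1 h in Ca2+-free DMEM. Vehicle therefore differed from both siRNA groups in transfection, serum and calcium together, and these cannot be told apart. Nothing names the samples as separate cultures, so p-values measure the spread between these samples, which may be technical.

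Classical cadherins join cells through calcium-bound extracellular repeats that pair with cadherins on the neighbouring cell, and their tails bind catenins that reach the actin cytoskeleton. Clustered protocadherins are made from 3 gene arrays in which a variable exon chosen by promoter use encodes the extracellular part, and in the alpha and gamma arrays it is spliced to constant exons that all genes of the array share. Integrins are pairs of an alpha and a beta subunit that bind matrix proteins or receptors on other cells and connect to talin and other adaptors inside.

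Total counts per sample were 28451562 to 35560442 in Vehicle, 25992363 to 39674984 in Scramble and 30041486 to 33481453 in Klf4 siRNA. Klf4 stood at 4.78 ± 0.555 CPM (counts scaled to a common library size) in Vehicle, 4.01 ± 0.609 in Scramble and 1.38 ± 0.359 in Klf4 siRNA (SD, n = 4), with 30 to 61 reads in the Klf4 siRNA samples, and its log2 fold change over Scramble was -1.53 ± 0.19 (SE; adjusted p = 5.77e-05). All 5 GnRH neuron markers looked for were listed, against 3 of 7 general neuron, 2 of 6 astrocyte, 3 of 7 oligodendrocyte lineage, 1 of 6 microglia and macrophage, 2 of 6 endothelial and 5 of 7 fibroblast and pericyte markers. Gnrh1 itself reached 676 ± 63.6 CPM in Vehicle, 1688 ± 139 in Scramble and 745 ± 66.1 in Klf4 siRNA. Among the general neuronal markers Snap25, Stmn2, Rbfox3 and Elavl4 were not among the listed genes, and Cdh5 and Pecam1, which define endothelium, were not either. The GnRH neuron list summed to between 1400 and 1572 CPM in Vehicle, 2293 and 2660 in Scramble and 1293 and 1450 in Klf4 siRNA. The fibroblast and pericyte list, which includes the smooth-muscle actin Acta2, summed to between 791 and 868 CPM in Vehicle, 140 and 156 in Scramble and 113 and 131 in Klf4 siRNA, and the endothelial list to between 47.9 and 54.6, 33.6 and 41.8, and 15.5 and 20.7. The listed neuron markers summed to between 115 and 126 CPM in Vehicle, 188 and 220 in Scramble and 157 and 164 in Klf4 siRNA, the astrocyte markers to between 76.9 and 88.0, 57.9 and 64.7, and 85.2 and 102, and the oligodendrocyte lineage markers to between 29.5 and 38.4, 17.1 and 19.1, and 14.6 and 16.7. Csf1r, the listed microglia and macrophage marker, stood between 34.6 and 41.9, 24.9 and 27.3, and 28.8 and 32.6. The part of these marker differences in the results below was not tested.

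The deposited counts of the alpha and gamma protocadherins were largely the same reads entered many times. In each sample all 14 alpha IDs held a common count, and 13 of them had at most 30 reads beyond it. The 21 gamma IDs behaved likewise, with 7 of them at most 30 reads above their common count and 3 at least 300 above it in every sample. For the median gene the common reads made up 100% of the count in the alpha cluster and 99.2% in the gamma cluster. Read in this way, 35 IDs carried 2 shared measurements, 1 per cluster, plus reads of their own that varied widely between IDs. Those of Pcdhac2, at 1540 to 3138, were more than the common alpha count in every sample, and those of Pcdhgc3 were 1458 to 2006.

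**Figure D1:**
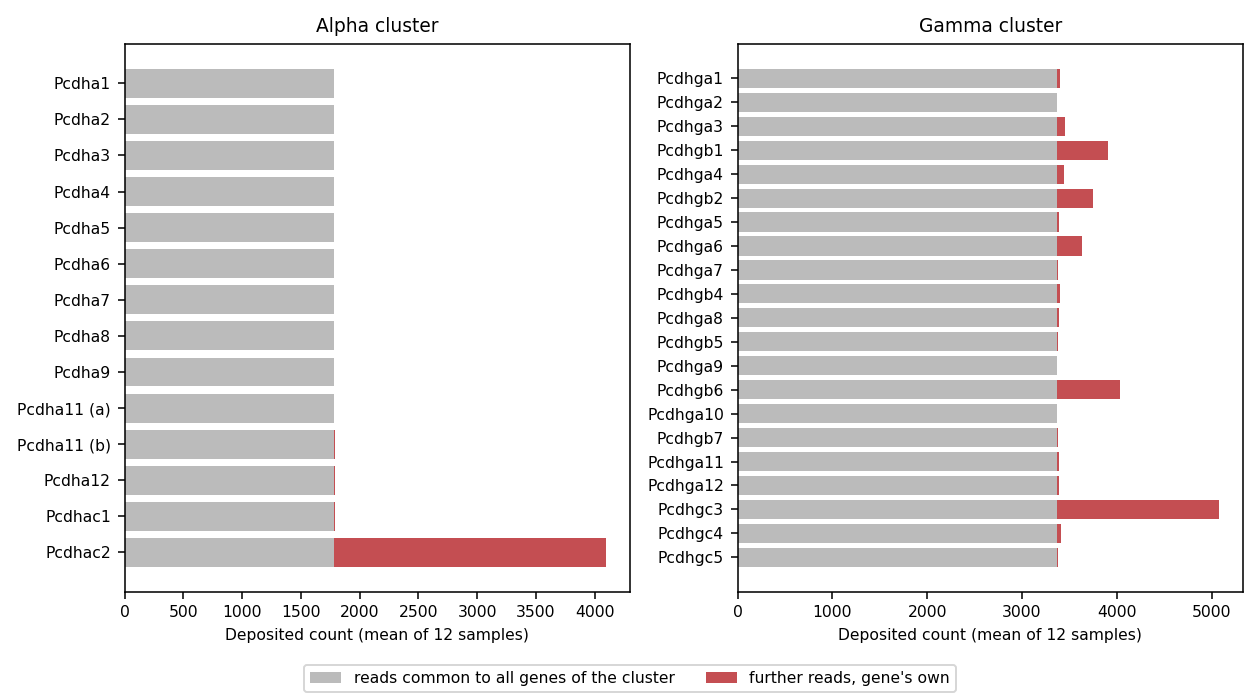
Deposited counts of the alpha (left) and gamma (right) protocadherin genes, as means of 12 samples. Grey is the count common to all genes of the cluster and red the further reads of each gene: the longest red bars are those of Pcdhac2 in the alpha cluster and of Pcdhgc3 and Pcdhgb6 in the gamma cluster.

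Each cluster was therefore also counted once, through the lowest count of its genes in each sample, which is an upper bound of the reads in the constant exons. A gene's reads above that count, its own reads, are a lower bound of the reads in its variable exon. They are not always exclusive to that gene. Of the exon bases of Pcdhgb1, 3154 lie in other annotated genes, and of those of Pcdhga4 3157, against 2116 constant bases. Own reads may therefore be entered for more than 1 gene, and own-read shares and counts of genes may hold them repeatedly. Counting each cluster once leaves 40 distinct measurements: 9 cadherins, 5 non-clustered protocadherins, 9 beta protocadherins, the constant exons of the alpha and of the gamma cluster, 10 alpha and 5 beta integrins. Itgb7 was absent from the table of Klf4 siRNA against Vehicle, which leaves 39 there.

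Levels between genes were compared only per length, as CPM per kilobase. Itgb1, the beta subunit shared by the largest number of integrin pairs, was far above every other receptor, at 352 ± 7.11 CPM per kilobase in Vehicle, 288 ± 9.61 in Scramble and 283 ± 15.1 in Klf4 siRNA. It held 99.5% ± 0.0722, 99.0% ± 0.0849 and 99.4% ± 0.0496 of the summed per-length level of the beta subunits in these groups. Among the alpha subunits, the laminin-binding Itga7 and Itga3 and the RGD-binding Itgav led, with 27.2 ± 2.27, 19.7 ± 1.35 and 16.0 ± 0.704 CPM per kilobase in Vehicle.

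The cadherins of these cells were chiefly Cdh11, a mesenchymal type II cadherin, and Cdh2, the neural N-cadherin. Cdh11 lay at 54.2 ± 1.92 CPM per kilobase in Vehicle, 41.6 ± 1.14 in Scramble and 41.0 ± 2.71 in Klf4 siRNA. Cdh2 stood at 30.8 ± 1.10, 25.2 ± 0.158 and 19.6 ± 0.731. Together they left little to the other 7 cadherins, since Cdh11 held 58.1% ± 1.59, 56.4% ± 0.522 and 62.2% ± 0.750 of the summed level of the class and Cdh2 33.1% ± 1.41, 34.2% ± 0.449 and 29.8% ± 0.630. Pcdh18 was the leading non-clustered protocadherin, with 71.5% ± 2.45 of its class in Vehicle, 87.4% ± 1.57 in Scramble and 83.8% ± 3.10 in Klf4 siRNA. In the plot of levels per length these few genes stand at the right of their class, and many others lie below 1 CPM per kilobase.

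**Figure D2:**
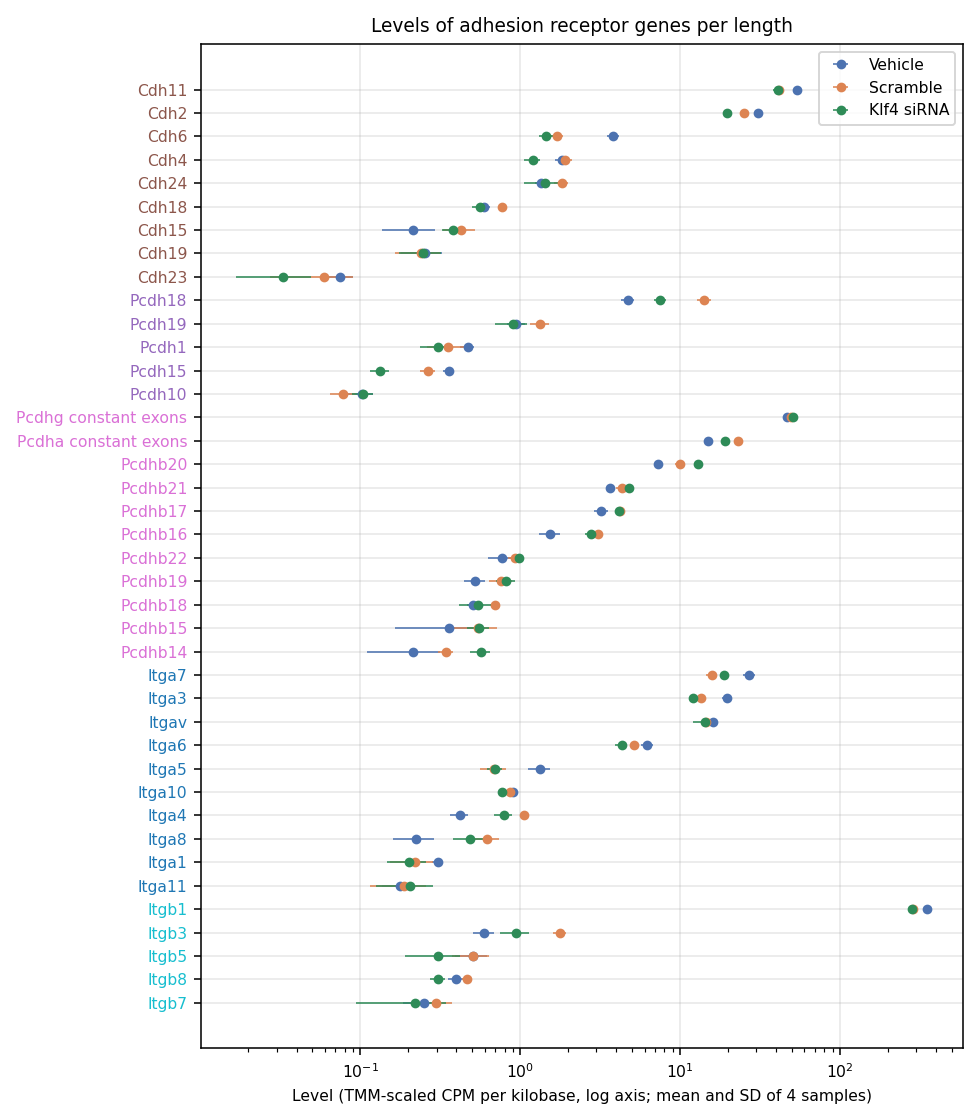
Level per length of the 40 distinct measurements, by class, on a log axis in TMM-scaled CPM per kilobase. Points are group means and bars SDs of 4 samples. Itgb1 lies farthest right, at 283 to 352. The group points stand apart for Pcdh18, Itgb3 and Itga4, and for Cdh6 the Vehicle point stands apart from the others.

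Scramble against Vehicle compared transfected cells with starved, calcium-deprived ones. Of the 40 measurements 15 rose and 11 fell at an adjusted p under 0.05 (edgeR quasi-likelihood test over all genes), and 14 did not pass. Over all genes tested in that comparison 53.9% were called, 27.3% upward and 26.6% downward, so the count of rises lay above the background share and that of falls near it. The groups did not overlap for 25 of the 40, against 48.4% of all genes, and 5 were called at 2-fold or more, against 5.1%. The median log2 fold change of the 40 was 0.15, beside 0.005 over all genes. The clustered protocadherins rose in 7 of 11 measurements and fell in none, while the alpha integrins rose in 2 of 10 and fell in 6. Counted by gene ID, 29 of 73 rose and 11 fell, beside 53.9% of all genes called and 5.08% at 2-fold or more. The rises became 48 without the first Scramble sample and 49 with library size alone.

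Klf4 siRNA against Scramble compared 2 transfected groups. Here 3 of the 40 measurements rose, 13 fell and 24 did not pass, where 35.8% of all genes were called, 18.3% upward and 17.6% downward. The groups did not overlap for 16 of the 40, against 34.6% of all genes, and 1 was called at 2-fold or more, against 2.7%. The median log2 fold change was -0.17, beside -0.002 over all genes. All called members of the cadherins (3 of 9), the non-clustered protocadherins (3 of 5) and the beta integrins (3 of 5) fell, and the 3 rises were Itga7, Pcdhb14 and Pcdhb20. By gene ID 3 of 73 rose and 26 fell, beside 18.5% and 17.5% of all genes (36% in either direction, 2.69% at 2-fold or more), and 14 of the 26 were the alpha protocadherin IDs that share 1 measurement.

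Klf4 siRNA against Vehicle gave 12 rises and 15 falls among 39 measurements, with 45.3% of all genes called, 24.1% upward and 21.3% downward. The groups did not overlap for 26 of the 39, against 41.1% of all genes, and 5 were called at 2-fold or more, against 5.27%. By gene ID 29 of 72 rose and 15 fell, beside 45.4% of all genes called in either direction, and the rises became 46 with library size alone or upper-quartile scaling. The median log2 fold change was -0.006, beside 0.018 over all genes. Each of the 3 comparisons shares 1 group with each of the others, so they are not independent of one another. With a whole cell line as the sample, fewer cells that make a transcript and less of it per cell cannot be told apart.

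**Figure D3:**
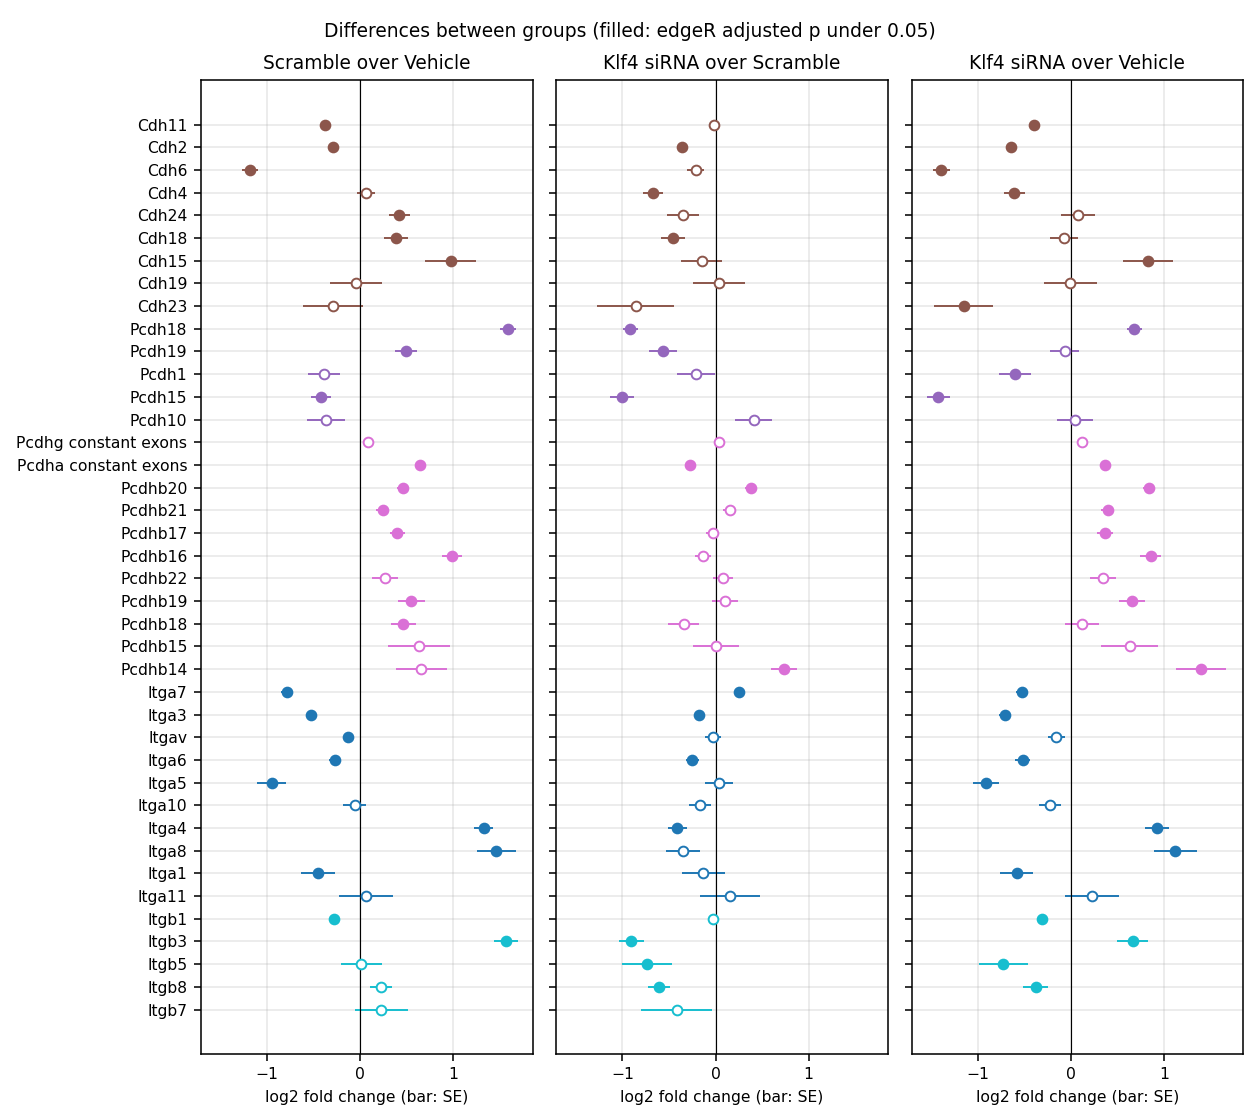
Log2 fold changes of the 40 measurements in the 3 comparisons, on 1 shared axis; bars are SEs, filled points have an edgeR adjusted p under 0.05, and colours mark the classes. In Klf4 siRNA over Scramble (middle) the filled points lie left of 0 except Itga7, Pcdhb20 and Pcdhb14.

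Among the cadherins, Cdh6, a type II cadherin known from kidney and neural development, differed most from Vehicle. Its CPM was 30.7, 34.1, 35.4 and 38.3 in the Vehicle samples, 13.6, 15.2, 17.1 and 15.3 in Scramble, and 15, 13.1, 12.3 and 12 in Klf4 siRNA. All Vehicle samples lay above all others, and the siRNA groups overlapped. Scramble held 44.0% of the Vehicle level (log2 fold change -1.18 ± 0.08 SE, adjusted p = 9.9e-08), and Klf4 siRNA 38.1% (-1.39 ± 0.09, adjusted p = 1.13e-07). Between the siRNA groups the log2 fold change was -0.21 ± 0.10 and did not pass (adjusted p = 0.101), though it did without the first Klf4 siRNA sample (-0.28, adjusted p = 0.0255).

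Cdh2, the N-cadherin that joins neural progenitors and synapses, stepped down from group to group. It read 242, 249, 261 and 243 CPM in Vehicle, 202, 204, 204 and 205 in Scramble, and 166, 154, 153 and 159 in Klf4 siRNA, with no overlap between any 2 groups. Its log2 fold change was -0.29 ± 0.04 for Scramble over Vehicle (adjusted p = 3.59e-05), -0.36 ± 0.04 for Klf4 siRNA over Scramble (adjusted p = 2.14e-05) and -0.64 ± 0.05 for Klf4 siRNA over Vehicle (adjusted p = 3.48e-07). Klf4 siRNA samples thus held 78.1% of the Scramble level and 64.0% of the Vehicle level.

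Cdh11 differed between Vehicle and both siRNA groups but not detectably between those. Vehicle samples read 498, 471, 464 and 496 CPM, Scramble 357, 377, 370 and 379, and Klf4 siRNA 394, 352, 340 and 375. Scramble over Vehicle gave -0.38 ± 0.04 (adjusted p = 3.46e-06) and Klf4 siRNA over Vehicle -0.39 ± 0.05 (adjusted p = 4.69e-05). For Klf4 siRNA over Scramble the 95% interval of the log2 fold change was -0.11 to 0.08 (adjusted p = 0.815).

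Cdh4, the retinal R-cadherin and close relative of Cdh2, had a different order. Its CPM was 12, 15.2, 13 and 13.1 in Vehicle, 15.7, 14.2, 12.7 and 12.9 in Scramble and 7.24, 8.78, 9.13 and 9.57 in Klf4 siRNA. The Klf4 siRNA samples lay below all 8 others, at 62.7% of Scramble (-0.67 ± 0.11, adjusted p = 0.000368) and 65.7% of Vehicle (-0.61 ± 0.11, adjusted p = 0.000752), whereas Scramble and Vehicle overlapped (0.06 ± 0.10, adjusted p = 0.597). Cdh18, a type II cadherin of the brain, was at 2.69 ± 0.247 CPM in Vehicle, 3.51 ± 0.122 in Scramble and 2.55 ± 0.286 in Klf4 siRNA. It rose in Scramble over Vehicle (0.38 ± 0.13, adjusted p = 0.0242) and fell in Klf4 siRNA over Scramble (-0.46 ± 0.13, adjusted p = 0.0165). The first call ended without the first Vehicle sample (adjusted p = 0.0696) and under a replicate block (0.0523), and the second without the third Klf4 siRNA sample (0.0506).

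Of the remaining cadherins, Cdh15, Cdh19 and Cdh23 were scarce. Cdh15, the muscle M-cadherin, had 15 to 34 reads in Vehicle, 34 to 64 in Scramble and 33 to 49 in Klf4 siRNA, and rose in both siRNA groups over Vehicle (log2 0.97 ± 0.27 and 0.83 ± 0.27). Cdh24 rose in Scramble over Vehicle (0.42 ± 0.11, adjusted p = 0.00707). Cdh23, which forms the tip links of hair cells together with Pcdh15, fell in Klf4 siRNA over Vehicle (-1.15 ± 0.32, adjusted p = 0.0102) at only 10 to 31 reads in the Klf4 siRNA samples. Cdh19, a cadherin of glial precursors, passed in no comparison.

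The non-clustered protocadherins held the member with the largest rise. Pcdh18, a delta2 protocadherin whose gene lies on the minus strand of chromosome 3 (49743296 to 49757325, GRCm38), read 28.9, 24.9, 24.0 and 23.5 CPM in Vehicle, 65.1, 81.0, 83.5 and 75.4 in Scramble, and 45.5, 38.6, 39.1 and 38.2 in Klf4 siRNA. The 3 groups did not overlap, and Scramble was highest. Scramble lay 3.01-fold above Vehicle (1.59 ± 0.09, adjusted p = 6.73e-09), Klf4 siRNA at 53.1% of Scramble (-0.91 ± 0.08, adjusted p = 2.51e-06) and 1.60-fold above Vehicle (0.68 ± 0.08, adjusted p = 2.33e-05).

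Pcdh15, the other tip-link protein, fell at each comparison. It read 8.14, 8.23, 8.23 and 9.53 CPM in Vehicle, 7.13, 5.94, 5.57 and 6.66 in Scramble and 3.76, 2.94, 3.09 and 2.82 in Klf4 siRNA. No 2 groups overlapped, and Klf4 siRNA was lowest. It stood at 49.9% of Scramble in Klf4 siRNA (-1.0 ± 0.13, adjusted p = 7.09e-05), the only member called at 2-fold or more in that comparison, and at 37.2% of Vehicle (-1.43 ± 0.12, adjusted p = 1.27e-06). Scramble was at 74.4% of Vehicle (-0.43 ± 0.11, adjusted p = 0.00417).

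Pcdh19, an X-linked delta2 protocadherin in which variants cause an epilepsy, was highest in Scramble. Its CPM was 9.02, 10.9, 8.62 and 11.1 in Vehicle, 12.4, 16.8, 13.6 and 13.1 in Scramble, and 6.87, 8.72, 12 and 10 in Klf4 siRNA. It rose in Scramble over Vehicle (0.49 ± 0.11, adjusted p = 0.00265) and fell in Klf4 siRNA over Scramble (-0.56 ± 0.15, adjusted p = 0.0112), a call that ended without the second Scramble sample (adjusted p = 0.0508). Pcdh1 fell in Klf4 siRNA over Vehicle (-0.60 ± 0.17, adjusted p = 0.0128), and Pcdh10 passed in no comparison.

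**Figure D4:**
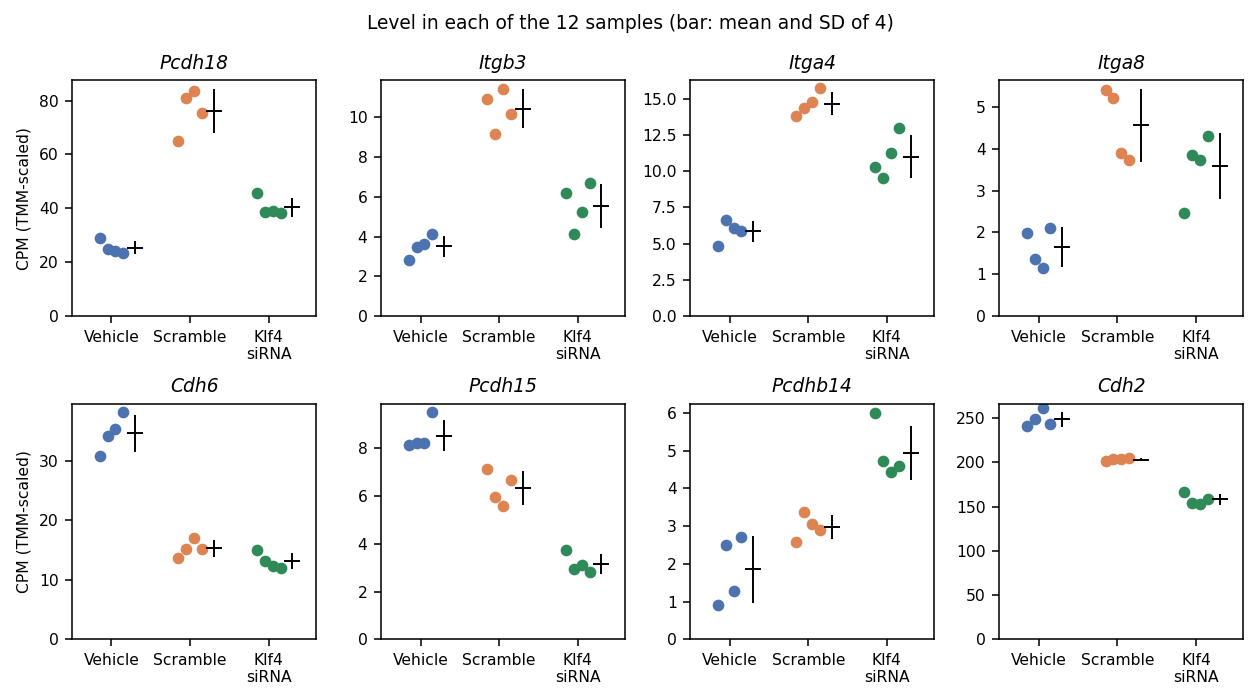
CPM in each of the 12 samples for 8 receptor genes, with the group mean and SD of 4 beside the points; each axis starts at 0. Scramble is highest for Pcdh18, Itgb3 and Itga4, with no overlap, and Vehicle for Cdh6, Pcdh15 and Cdh2, and Klf4 siRNA for Pcdhb14.

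The promoters of the members called at 2-fold or more show what sequence lies just before their start. KLF factors are known to bind CACCC and GC-rich boxes, so CACCC and GGGCGG were searched on both strands in the 250 bases before the RefSeq start (GRCm38.p6), and matches are in capitals. Pcdh18 and Itga4, both highest in Scramble, and Cdh6 and Pcdh15, both highest in Vehicle, are shown, each 5′ to 3′ on the gene's strand.
Pcdh18, chr3:49757317-49757566, minus strand: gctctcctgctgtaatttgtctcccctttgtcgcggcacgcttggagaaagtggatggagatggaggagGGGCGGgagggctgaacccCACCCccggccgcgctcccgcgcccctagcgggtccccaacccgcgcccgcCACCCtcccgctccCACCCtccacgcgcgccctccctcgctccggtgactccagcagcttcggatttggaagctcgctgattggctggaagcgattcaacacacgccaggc
Itga4, chr2:79255176-79255425, plus strand: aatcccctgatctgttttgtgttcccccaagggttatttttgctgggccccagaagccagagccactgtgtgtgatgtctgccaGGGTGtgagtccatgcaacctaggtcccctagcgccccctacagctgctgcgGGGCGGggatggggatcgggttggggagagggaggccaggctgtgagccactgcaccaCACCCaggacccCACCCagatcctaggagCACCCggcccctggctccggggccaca
Cdh6, chr15:13173676-13173925, minus strand: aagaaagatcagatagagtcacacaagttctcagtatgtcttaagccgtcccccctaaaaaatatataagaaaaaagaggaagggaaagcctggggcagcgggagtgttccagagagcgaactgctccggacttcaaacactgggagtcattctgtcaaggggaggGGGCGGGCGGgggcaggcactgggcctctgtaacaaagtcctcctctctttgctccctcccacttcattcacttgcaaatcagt
Pcdh15, chr10:73821617-73821866, plus strand: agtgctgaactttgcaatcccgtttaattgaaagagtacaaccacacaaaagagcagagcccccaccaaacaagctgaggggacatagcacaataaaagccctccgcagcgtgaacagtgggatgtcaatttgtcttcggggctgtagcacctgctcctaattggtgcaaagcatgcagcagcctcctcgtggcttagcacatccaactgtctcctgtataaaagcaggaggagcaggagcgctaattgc

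Pcdh18 held 3 matches to CACCC and 1 to GGGCGG, and Itga4 held 4 and 1. Cdh6 had 2 overlapping GGGCGG matches and no CACCC, and Pcdh15 had neither. Of 32851 RefSeq promoters of the same length, 52.0% held at least 1 CACCC, 6.92% at least 3 and 2.14% at least 4. GGGCGG was held by 32.7%, and 16.7% had at least 2. The cutoffs above 1 equal the match counts of Pcdh18, Itga4 and Cdh6. Among the others at 2-fold or more, Cdh23, which fell in Klf4 siRNA over Vehicle, had 1 CACCC. Itga8 had no match to either, with a start that was not found among the annotated transcript starts of the gene. Like Pcdh18 and Itga4 it was higher in both siRNA groups than in Vehicle, but without their matches. The match is a description of these letters and says nothing of whether a factor binds there. Pcdh15 has several annotated starts, and which of them these cells use was not examined. Itgb3 and Pcdhb14 were the remaining members at 2-fold or more. Their promoters are not described here, so whether they hold matches is not given.

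The beta protocadherins, single-exon genes whose deposited counts were not shared across the array, were higher in both siRNA groups than in Vehicle for most members. In Scramble over Vehicle 6 of 9 rose: Pcdhb16, b17, b18, b19, b20 and b21, where 27.3% of all genes rose. Klf4 siRNA over Vehicle also gave 6 rises, Pcdhb14, b16, b17, b19, b20 and b21, where 24.1% of all genes rose. None fell in either. These genes resemble each other in sequence and how reads with several matches were counted is stated nowhere in the labels, so the split between neighbours is uncertain, above all for Pcdhb21 and Pcdhb22, whose exons overlap by 455 bases.

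Pcdhb16 showed the largest called rise in Scramble over Vehicle among them. It read 6.50, 9.25, 8.59 and 7.96 CPM in Vehicle, 14.7, 16.5, 15.3 and 17.4 in Scramble and 16.2, 13.7, 14.6 and 13.7 in Klf4 siRNA. Both siRNA groups lay wholly above Vehicle and overlapped each other, with 1.98-fold for Scramble (0.98 ± 0.11, adjusted p = 4.68e-06) and 1.81-fold for Klf4 siRNA (0.86 ± 0.11, adjusted p = 5.71e-05).

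Pcdhb20, the beta protocadherin with the highest level per length, rose at each comparison. Vehicle samples read 26.2, 25.3, 27.4 and 24.6 CPM, Scramble 32.3, 36.9, 37.4 and 35.3, and Klf4 siRNA 45.4, 44.5, 45.3 and 48.6. No 2 groups overlapped, and the log2 fold changes were 0.46 ± 0.06 for Scramble over Vehicle (adjusted p = 5.28e-05), 0.38 ± 0.06 for Klf4 siRNA over Scramble (adjusted p = 0.000325) and 0.84 ± 0.06 for Klf4 siRNA over Vehicle (adjusted p = 3.47e-07).

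Pcdhb14 had its highest values in Klf4 siRNA too, at far lower counts. It read 0.905, 2.51, 1.29 and 2.72 CPM in Vehicle, 2.59, 3.37, 3.05 and 2.89 in Scramble and 5.99, 4.73, 4.42 and 4.60 in Klf4 siRNA. Klf4 siRNA lay wholly above Scramble, by 1.67-fold (0.74 ± 0.14, adjusted p = 0.00121), and above Vehicle, by 2.63-fold (1.40 ± 0.27, adjusted p = 0.000935). Scramble over Vehicle gave 0.66 ± 0.27 and did not pass (adjusted p = 0.0548), with overlapping groups, but passed under 7 of the alternatives tried.

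In the alpha cluster Pcdhac2, a C-type isoform, held 99.1% ± 0.686 of the own-read density in Vehicle, 99.4% ± 0.0743 in Scramble and 99.1% ± 0.233 in Klf4 siRNA. Its own reads numbered 1540 to 2060 in Vehicle, 2323 to 3138 in Scramble and 2209 to 2406 in Klf4 siRNA. Summed over the cluster, own reads per kilobase were 1.30 ± 0.128, 1.20 ± 0.0540 and 1.23 ± 0.0341 times the constant-exon reads per kilobase.

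The constant exons of the alpha cluster stood at 44.4, 43.3, 43.6 and 39.0 CPM in Vehicle, 65.4, 67.4, 68.3 and 64.5 in Scramble, and 56.8, 53.7, 52.1 and 56.2 in Klf4 siRNA. No 2 groups overlapped, and Scramble was highest. The constant exons were 1.56-fold higher in Scramble than in Vehicle (0.64 ± 0.05, adjusted p = 5.08e-07), fell in Klf4 siRNA over Scramble (-0.28 ± 0.05, adjusted p = 0.00068) and rose in Klf4 siRNA over Vehicle (0.37 ± 0.06, adjusted p = 0.000295). The own reads of Pcdhac2, a separate set of reads, gave 0.53 ± 0.06, -0.24 ± 0.06 and 0.29 ± 0.07, all called.

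The gamma cluster was read from several variable exons. Pcdhgc3, another C-type isoform, held 43.7% ± 1.62 of the own-read density in Vehicle, 37.8% ± 0.564 in Scramble and 36.5% ± 2.51 in Klf4 siRNA. Its share ran from 41.4% to 45.0% in the Vehicle samples, 37.2% to 38.6% in Scramble and 32.9% to 38.3% in Klf4 siRNA, so Vehicle lay above both. Of the 5499 exon bases of Pcdhgc3, 3678 lie in other annotated genes, BC037039 among them, while the constant exons take up 2116. The libraries do not mark strand, so the share and own reads of Pcdhgc3 may include reads of BC037039. Pcdhgb6 followed with 19.2% ± 1.80, 19.5% ± 0.551 and 21.1% ± 1.07, then Pcdhgb1, Pcdhgb2 and Pcdhga6. Pcdhga6 held 6.29% ± 0.381 in Vehicle, 8.98% ± 1.27 in Scramble and 8.35% ± 0.884 in Klf4 siRNA.

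Own reads of Pcdhgc3 did not change detectably, with 95% intervals of the log2 fold change of -0.12 to 0.09 for Scramble over Vehicle, -0.17 to 0.09 for Klf4 siRNA over Scramble and -0.18 to 0.09 for Klf4 siRNA over Vehicle. Reads of BC037039 may be among them. Own reads of Pcdhga6 rose in Scramble over Vehicle (0.71 ± 0.12, adjusted p = 0.00029) and in Klf4 siRNA over Vehicle (0.62 ± 0.10, adjusted p = 0.000355). Own reads of Pcdhgb2 did so too, by 0.47 ± 0.11 and 0.57 ± 0.12, and those of Pcdhgb1 by 0.30 ± 0.10 and 0.28 ± 0.10, the second of which lost its call under 7 alternatives. Pcdhgb6 own reads rose in Klf4 siRNA over Vehicle, a call lost in some settings, such as without the second Klf4 siRNA sample (0.31 ± 0.12, adjusted p = 0.0515). In Scramble over Vehicle they did not pass, but did in some settings, such as without the second Vehicle sample (0.33 ± 0.08, adjusted p = 0.00412). In all, own reads of 5 of the 16 gamma genes tested rose in Scramble over Vehicle, 5 of 17 in Klf4 siRNA over Vehicle and 1 of 18 in Klf4 siRNA over Scramble, and none fell. The shares over Vehicle were near the 27.3% and 24.1% of all genes that rose, and 18.3% of all genes rose in Klf4 siRNA over Scramble. The gene of that last comparison was Pcdhgc5, named after its values were seen, at 7 to 12 reads in Scramble and 14 to 28 in Klf4 siRNA.

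The constant exons of the gamma cluster passed in no comparison, at 98.8 ± 3.48 CPM in Vehicle, 105 ± 4.44 in Scramble and 107 ± 4.79 in Klf4 siRNA. The interval of the log2 fold change was -0.01 to 0.18 for Scramble over Vehicle, -0.06 to 0.14 for Klf4 siRNA over Scramble and 0.02 to 0.23 for Klf4 siRNA over Vehicle (adjusted p = 0.159, 0.61 and 0.081). A call appeared without the first Scramble sample in Scramble over Vehicle (adjusted p = 0.0428) and without the first Klf4 siRNA sample in Klf4 siRNA over Vehicle (0.0282), with library size alone in both (0.0206 and 0.0169), and with upper-quartile scaling in the latter (0.0408). Since all gamma IDs carry these reads, the count of gene IDs that rose depends on them.

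**Figure D5:**
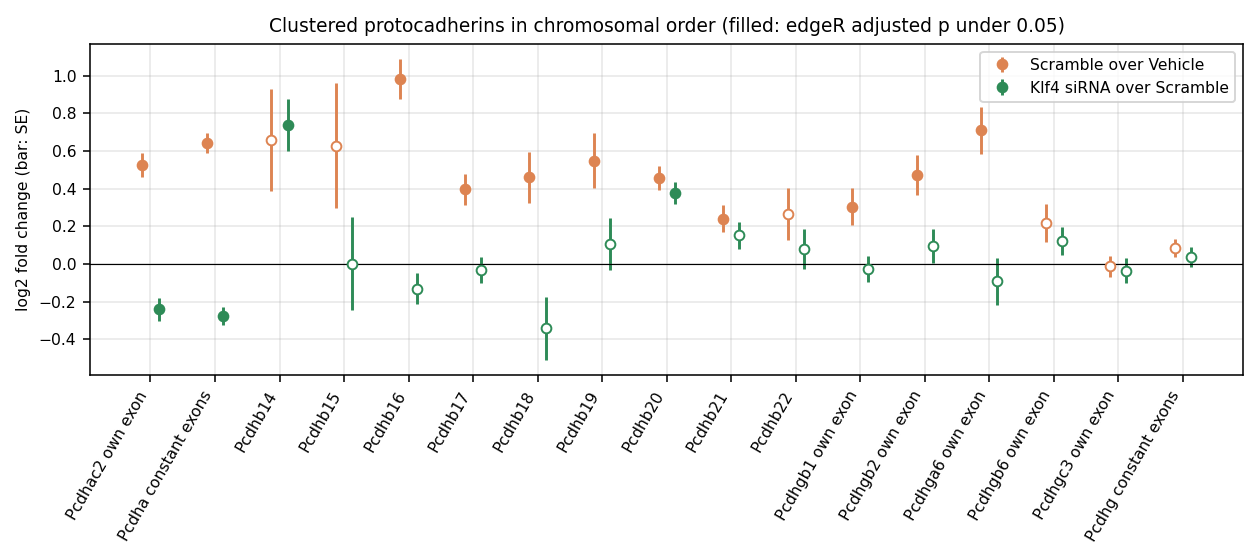
Log2 fold changes of the beta genes, the constant exons and the own reads of the 6 leading alpha and gamma genes, ordered as on the chromosome, for Scramble over Vehicle and Klf4 siRNA over Scramble; bars are SEs and filled points have an edgeR adjusted p under 0.05. All plotted Scramble over Vehicle values lie above 0 except the own reads of Pcdhgc3, and in Klf4 siRNA over Scramble the alpha values lie below 0 while Pcdhb14 and Pcdhb20 lie above it.

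Of the integrin alpha subunits, the 4 with the highest levels per length were all highest in Vehicle. Itga7, a laminin receptor of muscle and nerve, read 213, 243, 200 and 225 CPM in Vehicle, 140, 118, 129 and 123 in Scramble and 143, 157, 152 and 154 in Klf4 siRNA. The 3 groups did not overlap, and Scramble was lowest, at 58.0% of Vehicle (-0.79 ± 0.06, adjusted p = 3.88e-07). It was the only integrin that rose in Klf4 siRNA over Scramble (0.26 ± 0.06, adjusted p = 0.00356), and Klf4 siRNA held 69.4% of the Vehicle level (-0.53 ± 0.06, adjusted p = 2.42e-05).

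Itga3, which pairs with Itgb1 to bind laminins, read 108, 115, 105 and 122 CPM in Vehicle, 77.7, 76.8, 79.6 and 76.8 in Scramble and 64.3, 68.2, 70.6 and 70.6 in Klf4 siRNA. All 3 groups were apart, in falling order, with -0.53 ± 0.05 for Scramble over Vehicle (adjusted p = 2.2e-06), -0.18 ± 0.05 for Klf4 siRNA over Scramble (adjusted p = 0.0104) and -0.71 ± 0.06 for Klf4 siRNA over Vehicle (adjusted p = 1.57e-06). Itga6, another laminin-binding subunit, fell at each comparison as well (-0.27 ± 0.07, -0.25 ± 0.07 and -0.52 ± 0.08). Itgav fell in Scramble over Vehicle alone among the 3 tests (-0.13 ± 0.04, adjusted p = 0.0169).

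Itga5, the fibronectin receptor subunit, was at 6.55 ± 1.02 CPM in Vehicle, 3.39 ± 0.638 in Scramble and 3.45 ± 0.373 in Klf4 siRNA. Scramble held 51.6% of the Vehicle level (adjusted p = 0.000147) and Klf4 siRNA 53.1% (adjusted p = 0.000174), and the siRNA groups did not differ detectably (95% interval -0.26 to 0.34). Itga1, a collagen receptor subunit, fell in both siRNA groups over Vehicle (-0.45 ± 0.18 and -0.58 ± 0.18). Itga10 and Itga11, also collagen receptor subunits, passed in no comparison, and 33.5% of the exon bases of Itga10 overlap another annotated gene.

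Itga4 and Itga8 went the other way. Itga4, whose pair with Itgb1 binds Vcam1 and fibronectin, read 4.86, 6.62, 6.07 and 5.85 CPM in Vehicle, 13.8, 14.4, 14.8 and 15.7 in Scramble and 10.3, 9.55, 11.3 and 13.0 in Klf4 siRNA. The 3 groups did not overlap, and Scramble was 2.51-fold above Vehicle (1.33 ± 0.10, adjusted p = 1.71e-07). Klf4 siRNA lay at 75.3% of Scramble (-0.41 ± 0.10, adjusted p = 0.00656) and 1.89-fold above Vehicle (0.92 ± 0.13, adjusted p = 8e-05). Of the Itga4 exon bases 8.04% overlap Cerkl, and the libraries do not mark strand, so reads there cannot be told apart.

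Itga8, the nephronectin-binding subunit, read 1.98, 1.36, 1.15 and 2.11 CPM in Vehicle, 5.40, 5.21, 3.89 and 3.74 in Scramble and 2.47, 3.87, 3.74 and 4.31 in Klf4 siRNA. Both siRNA groups lay above Vehicle, by 2.76-fold (1.46 ± 0.20, adjusted p = 4.66e-05) and 2.18-fold (1.12 ± 0.23, adjusted p = 0.00137). The siRNA groups overlapped (-0.34 ± 0.18, adjusted p = 0.161), and Vehicle held only 32 to 73 reads.

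Among the beta subunits Itgb1 read 1446, 1448, 1454 and 1392 CPM in Vehicle, 1126, 1218, 1194 and 1172 in Scramble and 1247, 1132, 1115 and 1126 in Klf4 siRNA. Vehicle lay above both siRNA groups, and Scramble held 82.1% of it (-0.29 ± 0.04, adjusted p = 2.14e-05) and Klf4 siRNA 81.0% (-0.30 ± 0.04, adjusted p = 7.74e-05). Between the siRNA groups the 95% interval was -0.10 to 0.06 (adjusted p = 0.706).

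Itgb3, the partner of Itgav in the vitronectin receptor, read 2.82, 3.50, 3.63 and 4.11 CPM in Vehicle, 10.9, 9.16, 11.4 and 10.2 in Scramble and 6.17, 4.14, 5.22 and 6.68 in Klf4 siRNA. No 2 groups overlapped, and Scramble was highest, 2.96-fold above Vehicle (1.57 ± 0.12, adjusted p = 2.79e-07). Klf4 siRNA lay at 53.4% of Scramble (-0.90 ± 0.14, adjusted p = 0.000248) and 1.59-fold above Vehicle (0.67 ± 0.17, adjusted p = 0.0061). The last call ended when Klf4 siRNA samples 1 and 4 were left out together (0.41, adjusted p = 0.103).

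Itgb8, which with Itgav activates latent TGF-beta, read 4.19, 3.93, 5.03 and 4.52 CPM in Vehicle, 5.13, 4.92, 4.84 and 5.66 in Scramble and 2.99, 3.12, 3.62 and 3.73 in Klf4 siRNA. Klf4 siRNA was lowest, at 65.7% of Scramble (-0.61 ± 0.12, adjusted p = 0.00192). Its difference from Vehicle (-0.38 ± 0.14, adjusted p = 0.0392) was lost in 5 of the 8 fits that left out 1 sample, as far as adjusted p = 0.115 without the third Vehicle sample. Itgb5, another partner of Itgav, fell in Klf4 siRNA over Scramble (-0.74 ± 0.27) and over Vehicle (-0.73 ± 0.27) at 26 to 57 reads in the Klf4 siRNA samples, and both calls were lost when several single samples were left out, as far as adjusted p = 0.158 without the first Scramble sample and 0.110 without Vehicle sample 4. They were also lost under a replicate block (0.0780 and 0.0501) and without Klf4 siRNA samples 1 and 4 (0.206 and 0.217), the first also without the low-count filter (0.0507) and the second also with library size alone (0.0522). Itgb7, at 9 to 35 reads, passed in neither comparison that listed it.

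Genes that work beside these receptors were counted from lists chosen by their known roles, and each count is set beside the share of all genes called in that direction, which was 18.5% for rises and 17.5% for falls in Klf4 siRNA over Scramble, 27.3% and 26.6% in Scramble over Vehicle, and 24.1% and 21.3% in Klf4 siRNA over Vehicle. Of the catenins and other cadherin partners, none rose and 6 of 13 tested fell in Klf4 siRNA over Scramble, 3 rose and 4 fell of 14 in Scramble over Vehicle, and 2 rose and 5 fell of 14 in Klf4 siRNA over Vehicle. The falls in Scramble over Vehicle were near the 26.6% of all genes that fell. Ctnnd1, the p120-catenin that holds cadherins at the membrane, fell in Klf4 siRNA over Scramble (-0.42 ± 0.05, adjusted p = 4.34e-05), as did Ctnna1, the alpha-catenin that binds actin (-0.29 ± 0.04, adjusted p = 0.000121). Jup, plakoglobin, fell in Scramble over Vehicle (-0.67 ± 0.06), and Ctnna3, an alpha-catenin of heart and testis, fell there too (-2.91 ± 0.26). Ctnna3 was the only partner not tested in Klf4 siRNA over Scramble, where it was not listed or did not pass the low-count filter. Its reads per sample are not given here.

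Among the talins, kindlins and other integrin partners, 3 rose and 7 fell of 28 in Klf4 siRNA over Scramble, 10 rose and 10 fell in Scramble over Vehicle, and 8 rose and 11 fell in Klf4 siRNA over Vehicle, where 18.5% and 17.5%, 27.3% and 26.6%, and 24.1% and 21.3% of all genes rose and fell. Itgb1bp1, which competes with talin for the Itgb1 tail, rose in Klf4 siRNA over Scramble (0.66 ± 0.05, adjusted p = 1.13e-06), and Tln2, a talin, fell (-0.64 ± 0.06, adjusted p = 8.7e-06). Zyx, a focal adhesion protein, fell in Scramble over Vehicle (-0.69 ± 0.04), as did the adaptor Bcar1 (-0.52 ± 0.04), and in Klf4 siRNA over Vehicle Zyx (-0.84 ± 0.06) and the integrin-linked kinase Ilk (-0.55 ± 0.04) fell.

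Of other members of the cadherin superfamily, 5 rose and 3 fell of 11 in Scramble over Vehicle, none rose and 4 of 12 fell in Klf4 siRNA over Scramble, and 2 rose and 4 fell of 11 in Klf4 siRNA over Vehicle. The falls in Scramble over Vehicle were near the share of all genes, 26.6%, while 27.3% of all genes rose there and 17.5% fell in Klf4 siRNA over Scramble. Cdhr1, a photoreceptor cadherin, rose 4.30-fold in Scramble over Vehicle (2.10 ± 0.07, adjusted p = 7.49e-11) and 4.70-fold in Klf4 siRNA over Vehicle. Clstn2, a synaptic calsyntenin, fell in all 3 comparisons (-1.30 ± 0.09, -0.65 ± 0.11 and -1.95 ± 0.12), and Dchs2 fell in Klf4 siRNA over Scramble (-0.82 ± 0.12).

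Other adhesion molecules showed 3 rises and 10 falls among 22 in Klf4 siRNA over Scramble, 8 and 8 of 21 in Scramble over Vehicle, and 6 and 9 of 22 in Klf4 siRNA over Vehicle. Of all genes 18.5% rose and 17.5% fell in the first of these comparisons, 27.3% and 26.6% in the second, and 24.1% and 21.3% in the last. Vcam1, the ligand of the Itga4 and Itgb1 pair, fell in Scramble over Vehicle (-1.51 ± 0.06, adjusted p = 6.1e-10) and rose in Klf4 siRNA over Scramble (1.36 ± 0.07, adjusted p = 2.16e-08). Sdc2, a syndecan proteoglycan, fell in Klf4 siRNA over Scramble (-1.04 ± 0.05), and the syndecan Sdc3 rose in Scramble over Vehicle (1.06 ± 0.08). In Klf4 siRNA over Vehicle Ncam1, the neural cell adhesion molecule, fell (-0.98 ± 0.06) and Nectin4 rose (2.51 ± 0.17).

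Genes known to regulate the protocadherin clusters, such as cohesin subunits and chromatin silencers, rose in 4 and fell in 1 of 14 in Scramble over Vehicle, rose in none and fell in 5 in Klf4 siRNA over Scramble, and rose in 2 and fell in 4 in Klf4 siRNA over Vehicle. The rises in Scramble over Vehicle were near the 27.3% of all genes that rose, and 17.5% of all genes fell in Klf4 siRNA over Scramble. Smchd1, a repressor of the clusters, rose in Scramble over Vehicle (0.49 ± 0.05), as did the cohesin subunit Rad21 (0.25 ± 0.05). Pds5b, a cohesin regulator, fell in Klf4 siRNA over Scramble (-0.41 ± 0.06), as did the histone methyltransferase Setdb1 (-0.21 ± 0.05), which also fell over Vehicle (-0.27 ± 0.06) where the DNA methyltransferase Dnmt3b rose (0.52 ± 0.11). Of the proteases that cut or mature these receptors, 2 rose and 8 fell of 12 in Scramble over Vehicle, 2 rose and 3 fell in Klf4 siRNA over Scramble, and none rose and 8 fell in Klf4 siRNA over Vehicle. Of all genes 26.6% fell in Scramble over Vehicle and 21.3% in Klf4 siRNA over Vehicle, and the counts in Klf4 siRNA over Scramble were near the 18.5% and 17.5% of all genes. The proprotein convertase Pcsk5 rose in Scramble over Vehicle (1.19 ± 0.11) and fell in Klf4 siRNA over Scramble (-1.22 ± 0.11), where the gamma-secretase subunit Psenen rose (0.34 ± 0.06). The sheddase Adam9 fell in both siRNA groups over Vehicle (-0.56 ± 0.04 and -0.36 ± 0.05), and the gamma-secretase subunit Aph1a fell in Klf4 siRNA over Vehicle (-0.46 ± 0.07).

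The authors' deposited table called 29 of 73 members at an FDR under 0.05 in Klf4 siRNA over Scramble, 41 of 73 in Scramble over Vehicle and 43 of 72 in Klf4 siRNA over Vehicle, and 29, 39 and 43 of these were also called here in the same direction. Its own score, in the authors' deposited table, marked 0, 5 and 5 of the members as up or down.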

How the data were processed

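The authors deposited a table for each pair of groups, and its raw counts, named as such per the file headers, were analysed. The RPKM values, log2 fold changes, p-values with FDR, and an up or down score of those tables were made by the authors, per the file headers, and served only for comparison. FastQC, STAR, STAR-Fusion, Subread, edgeR and the mm10 build are named in the submitters' processing notes, with no role. Libraries were made with a SMART-Seq kit, which does not mark strand, per the labels.

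Samples were grouped by title. Each comparison was fitted on its 8 samples over all genes with edgeR 4.0.16 (R 4.3.3; TMM, filterByExpr, quasi-likelihood test, Benjamini-Hochberg adjustment), and called at an adjusted p under 0.05. The SE was the log2 fold change divided by the square root of F, and intervals are 1.96 SE on each side. CPM used TMM factors over 12 samples, and levels per length the deposited gene length. Positions are from GENCODE M21 (GRCm38) and promoters from RefSeq. Biological coefficients of variation were 7.30% to 9.01%.

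Single genes are given from the fit on all deposited gene IDs, and constant-exon and own reads from the fit with clusters counted once. Counting the alpha and gamma protocadherin clusters once was chosen after the data were seen. The members and lists were chosen with earlier results of these data known. Named genes were those that, in each of 5 classes and each comparison, were called and ranked in the 3 smallest p, the 2 members of a class with the highest level per length, the largest called rise and fall of each comparison, and 2 called genes per partner list and comparison; other members named were chosen after their values were seen. Where that rule named single alpha or gamma IDs, the shared and own reads are given instead. Alternatives were other scalings, DESeq2 1.42.0, other filters, all 12 samples in 1 fit, a replicate block, left-out samples and a fold threshold. The fits were also run on simulated counts with the same spread for every gene and few changed genes. That setting differs from these data, so the run does not show how the fits perform here.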

Additional observations from a re-analysis of the deposited data

Results flagged for a closer look

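In 8 of the 138 sets of 4 samples checked, 1 sample stood apart from the other 3 by a gap that filled nearly all of the set's range (Dixon's criterion at the 95% level), and chance alone flags about 1 in 20 such sets. The first Klf4 siRNA sample was high for Itgb1, at 1247 CPM with the others between 1115 and 1132, and for Pcdh18, at 45.5 CPM with the others between 38.2 and 39.1. The same sample was low for the gamma constant exons, at 99.9 CPM with the others between 108 and 110. The second Klf4 siRNA sample was low for Cdh24, at 3.06 CPM, and high for Itga11, at 1.67 CPM. In Vehicle the fourth sample was low for Itgb1, at 1392 CPM against 1446 to 1454, and high for Pcdh15, at 9.53 CPM against 8.14 to 8.23. The third Vehicle sample was high for Itgav, at 183.7 CPM against 167.9 to 169.6.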

How the results depend on the processing

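Across named members and settings 1265 values kept direction and side of the threshold, 40 lost the call, 17 gained one and 22 changed sign, all 22 in comparisons without a call. With clusters counted once, 13 members fell in Klf4 siRNA over Scramble, and 15 and 12 rose in Scramble and in Klf4 siRNA over Vehicle, in place of the 26, 29 and 29 gene IDs. Library size alone gave 49 and 46 rises of gene IDs over Vehicle, and upper-quartile scaling 46 in Klf4 siRNA over Vehicle. With a 2-fold minimum 341 genes were called in Klf4 siRNA over Scramble (0 members rose, 1 fell), 642 in Scramble over Vehicle (4 rose, 1 fell) and 668 in Klf4 siRNA over Vehicle (2 rose, 3 fell), and the member counts were the same with clusters counted once. Leaving out 1 sample gave 3531 to 4634, 6085 to 6755 and 4899 to 5654 genes called in these comparisons. Gene IDs then rose in 3 to 3, 28 to 48 and 24 to 43 cases and fell in 24 to 26, 9 to 11 and 13 to 15, and distinct measurements rose in 3 to 3, 15 to 16 and 11 to 14 and fell in 12 to 13, 9 to 11 and 13 to 15. The 48 came without the first Scramble sample.

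Same-numbered samples correlated between -0.17 and 0.13, so the numbers were not taken to pair the samples. A replicate block called 3880, 6143 and 5968 genes, with 3, 28 and 30 gene IDs risen and 25, 11 and 14 fallen.

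Some values near 0 without a call changed sign. Leaving out single samples gave Klf4 siRNA over Scramble values of -0.053 to 0.017 for Cdh11, -0.069 to 0.025 for own reads of Pcdhgc3 and -0.19 to 0.014 for those of Pcdhga6. Scramble over Vehicle values then ran from -0.15 to 0.14 for Itgb5 (-0.0072 under the replicate block) and from -0.0376 to 0.0315 for own reads of Pcdhgc3 (0.014 with upper-quartile scaling, 0.044 with library size alone). Klf4 siRNA over Vehicle values ran from -0.21 to 0.040 for Pcdh19 and from -0.075 to 0.0074 for own reads of Pcdhgc3 (0.0041 with library size alone). Without Klf4 siRNA samples 1 and 4, values were 0.066 for Pcdh19 and 0.023 for own reads of Pcdhgc3 over Vehicle, and 0.042, 0.0059 and -0.026 over Scramble for own reads of Pcdhgc3, Pcdhgb1 and Pcdhgb2. The causes were not tested.

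Members under about 100 reads per sample (Cdh15, Cdh19, Cdh23, Itga11, Itgb5, Itgb7, Pcdh10 and Pcdhb15) had SEs of 0.20 to 0.41. A call needs a difference well above the SE, so differences of this size and larger could be missed there at this depth.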
